A study of Mus musculus with 9 samples.

Results

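The miR-25, miR-92 and miR-363 seed family holds the mouse microRNAs (miRNAs) mmu-miR-25-3p, mmu-miR-92a-3p, mmu-miR-92b-3p, mmu-miR-32-5p and mmu-miR-363-3p (mmu, for mouse, is left out from here on), which share bases 2 to 8 at their 5′ end. The 5 members were taken by name from the 1027 probes for mouse miRNAs on the array, each with 4 spots, by a rule that uses the seed and no measured value. Of the 5, miR-25-3p, miR-92b-3p and miR-32-5p passed the filter on dim probes and were among the 462 mouse probes tested. miR-92a-3p was detected on 1 of 9 arrays and miR-363-3p on 0, and both stayed out of the tests.

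The study measured miRNAs in the olfactory bulb, where nasal sensory axons end, after mice breathed the irritant gas formaldehyde (FA). All were males of the outbred ICR stock, aged 8 weeks. Animals were placed in a chamber with 3 ppm FA for 6 hours per day, on 1 day (FA 1 day, 3 arrays, numbered 1, 2 and 4 in the labels) or on 7 days in a row (FA 7 days, 3 arrays). Control mice (3 arrays) were held under the same conditions without FA. Bulb RNA carried the Hy3 dye on its 3′ end and was hybridised to single-colour Exiqon arrays. The labels give no transgene, deletion or further agent. Batches could not be tested, since no slide or scan day is given, and the time at which controls were dissected is not given either.

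A miRNA guides the silencing complex to messenger RNAs that pair with its seed, so miRNAs of 1 seed are predicted to bind largely overlapping sets of messenger RNAs. The members come from clusters with different genomic homes: miR-25 lies in the miR-106b-25 cluster within the replication gene Mcm7, and miR-92a lies in the miR-17-92 cluster and its X-linked relative, which also holds miR-363. In mouse neural tissue the miR-17-92 and miR-106b-25 clusters are known to promote the proliferation of neural progenitors, and miR-92b for restraining the intermediate progenitor factor Tbr2 in the cortex. The bulb keeps receiving new neurons from such progenitors in adult mice.

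The mature sequences are shown because the arrays have to tell these close relatives apart. They come from RefSeq on the build GRCm38.p6, are written 5′ to 3′, and carry the seed, bases 2 to 8, in capitals.
miR-25-3p: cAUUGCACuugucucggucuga
miR-92a-3p: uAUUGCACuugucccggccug
miR-92b-3p: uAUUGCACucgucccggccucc
miR-32-5p: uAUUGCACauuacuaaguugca
miR-363-3p: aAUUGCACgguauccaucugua
miR-367-3p: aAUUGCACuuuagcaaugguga
Of 1679 mature mouse names in that table, 6 have this seed, AUUGCAC, which pairs with GUGCAAU in a target. The sixth is miR-367-3p, a partner of miR-302 known from pluripotent stem cells; it is not a member by name and was not detected on any array, with signals from -6.50 to 4.25.

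Outside the seed the members fall into a close trio and a distant pair. Counting positions from 1 at the 5′ end and giving the first-named miRNA's base first, miR-25-3p differs from miR-92a-3p at 3 of 21 compared bases (C1U, U14C and U18C). miR-92a-3p differs from miR-92b-3p at 2 of 21 (U10C and G21C), and miR-92b-3p is 1 base longer. miR-25-3p and miR-92b-3p differ at 6 of 22 bases (C1U, U10C, U14C, U18C, G21C and A22C). miR-32-5p shares 13 of 22 bases with miR-25-3p and 13 of 22 with miR-363-3p, while miR-25-3p and miR-363-3p share 9 of 22. Base composition spreads widely as well: guanine and cytosine make up 31.8% of miR-32-5p, 40.9% of miR-363-3p, 50% of miR-25-3p, 57.1% of miR-92a-3p and 63.6% of miR-92b-3p. Whether the miR-92a-3p and miR-92b-3p probes take up each other's RNA was not tested.

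The loci are spread over the genome, and the table used gives the spans of genes but not their exons or introns. miR-25-3p maps to chr5:138165332-138165353 on the minus strand, within the span of Mcm7 and within 10000 bp of the Mir106b and Mir93 hairpins. miR-92a-3p has a pair of copies. The Mir92-1 copy is at chr14:115044476-115044496 on the plus strand, inside the long noncoding RNA gene Mir17hg with the Mir17, Mir18, Mir19a, Mir20a and Mir19b-1 hairpins. The Mir92-2 copy is at chrX:52741854-52741874 on the minus strand, next to miR-363-3p at chrX:52741697-52741718 on the same strand. miR-92b-3p, at chr3:89227126-89227147 on the minus strand, lies in no listed gene and has no other hairpin within 10000 bp. miR-32-5p, at chr4:56895272-56895293 on the minus strand, lies within the span of Tmem245, also without another hairpin nearby.

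Signal below means foreground minus background intensity, averaged over the 4 spots of a probe, and the minimum for detection on an array was a signal of 30. Normalized values are log2 intensities after background correction and quantile normalization, group values are mean ± SD (n = 3), and differences are limma estimates with their standard error (SE). Levels of different probes are not compared, since each probe binds with its own strength. In tissue RNA, fewer cells of a type and less miRNA per cell cannot be told apart. Between 398 and 520 mouse probes were detected per array, and median background ran from 35 to 49. A pair of arrays stood apart over the 462 tested probes: control replicate 2 had a root mean square deviation of 0.880 from the mean of the other arrays and FA 7 days replicate 3 one of 0.641, against 0.298 to 0.457 on the rest. Median signal over the 351 mouse probes detected on all arrays ran from 224 on FA 7 days replicate 3 to 441 on FA 7 days replicate 1. Neuronal miRNAs, 6 of 6 on the list, were detected on all arrays, with summed signals from 49305.5 to 112086. With limma, 0 of 462 probes had an adjusted p under 0.05 in any of the 3 comparisons or in the F-test over the groups, which is 0% of those tested in each. Unadjusted p fell under 0.05 for 29 probes (6.28%) in FA 1 day versus control, 21 (4.55%) in FA 7 days versus control, 38 (8.23%) in FA 7 days versus FA 1 day and 31 (6.71%) in the F-test. None of the 3 tested members passed the adjusted test in any of these, and 1, miR-25-3p, had an unadjusted p under 0.05, in FA 7 days versus control.

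miR-25-3p lay highest after 7 days. Its signal was 156, 21.5 and 162 on control replicates 1, 2 and 3. After 1 day it was 186.5, 148.5 and 150 on replicates 1, 2 and 4, and after 7 days 319.5, 396.5 and 150 on replicates 1, 2 and 3. FA 7 days replicates 1 and 2 were the brightest of all, replicate 3 had the same signal as an FA 1 day array, and control replicate 2 was the 1 array below the detection minimum. On the normalized scale the values were 7.77, 6.30 and 7.91 in control, 7.98, 7.69 and 7.70 after 1 day and 8.26, 8.93 and 8.19 after 7 days. Normalization placed FA 7 days replicate 3, a dim array, above all control and all FA 1 day arrays, so that the FA 7 days values overlapped neither group. In FA 7 days versus control, 41 of the 462 probes (8.87%) lay higher without overlap, and in FA 7 days versus FA 1 day 55 (11.9%) did.

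**Figure D1:**
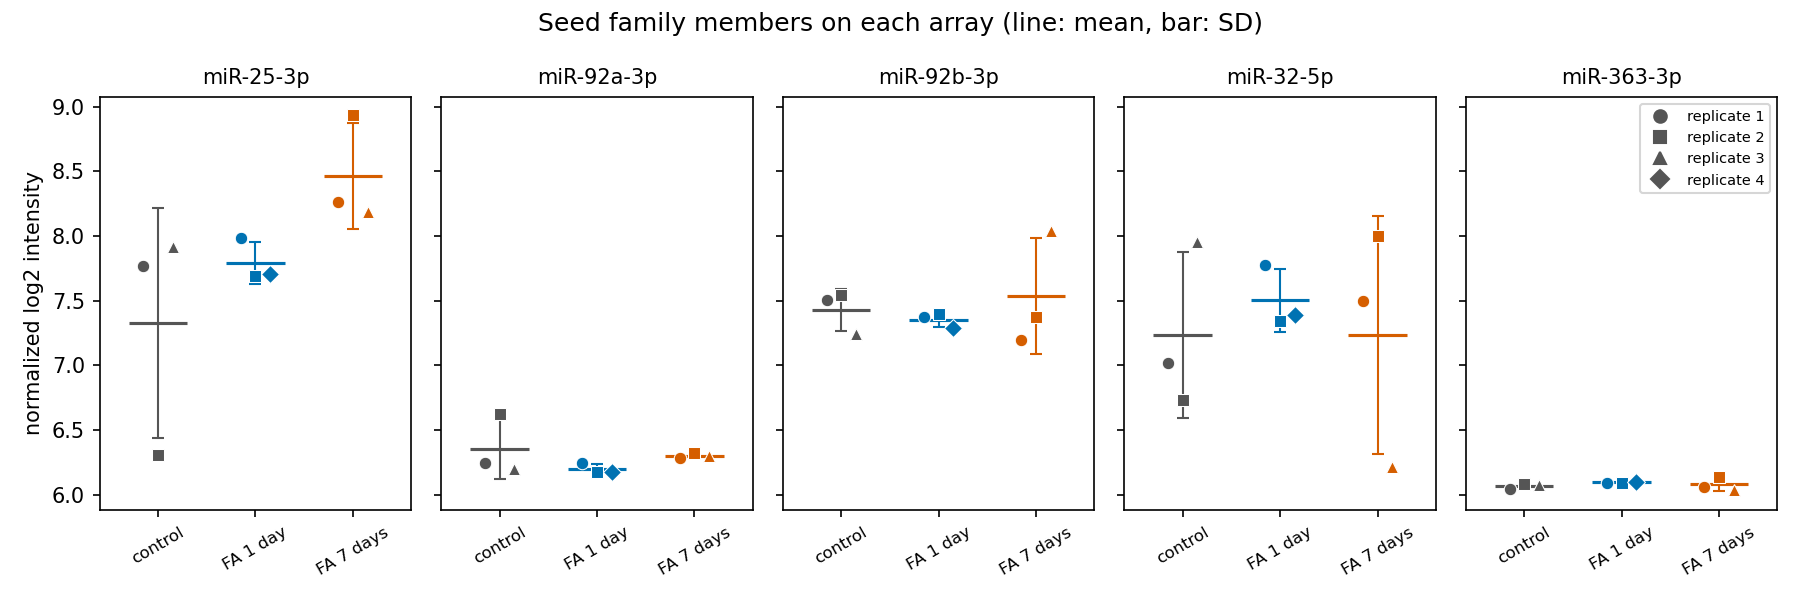
Normalized log2 intensity (y axis) of each member on each of the 9 arrays, by group, with the symbol giving the replicate number in the labels, the long line the group mean and the bar its SD (n = 3). miR-25-3p reached 8.46 ± 0.41 after 7 days against 7.33 ± 0.89 in control, while miR-92a-3p and miR-363-3p stayed near the lower end of the scale. Panels share an axis, but levels of different probes cannot be compared.

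The group means of miR-25-3p were 7.33 ± 0.89 in control, 7.79 ± 0.16 after 1 day and 8.46 ± 0.41 after 7 days. FA 7 days lay 1.13 ± 0.41 (SE) above control, a 2.19-fold difference with a 95% interval from 1.15 to 4.19, and an adjusted p of 0.701 with limma. Its unadjusted p was under 0.05 and number 7 in size among the 462 probes. FA 1 day lay 0.46 ± 0.41 above control (adjusted p = 0.801 with limma), and FA 7 days lay 0.67 ± 0.41 above FA 1 day (adjusted p = 0.787 with limma). The F-test over the 3 groups gave an adjusted p of 0.673 with limma. None of these differences passed, and the interval of FA 1 day versus control, from -0.47 to 1.40, includes both no difference and differences larger than the one after 7 days.

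Control replicate 2 weighs on each miR-25-3p difference from control. Without it FA 7 days lay 0.62 above control (limma adjusted p = 0.973), and the FA 1 day difference turned to -0.048. Without FA 7 days replicate 3 as well, a setting chosen after seeing the data, FA 7 days lay 0.76 above control and 0.81 above FA 1 day (limma adjusted p = 0.147 for the latter). On the normalized scale all 3 arrays after 7 days lay above control replicates 1 and 3, and the arrays after 1 day overlapped with them, while the signal of FA 7 days replicate 3, 150, lay below both.

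All 4 spots of the probe gave these values. Control replicate 2 had spots of 22, 23, 18 and 23. FA 7 days replicate 2 had spots of 377, 425, 403 and 381. The spread between spots of 1 array was small beside the distance between these arrays. The probe is printed in separate areas, blocks 10 and 28. Median signals there, over 22 probes detected on all arrays, were 210.25 and 199.75 on control replicate 2. They ran from 244.5 to 266.75 on control replicates 1 and 3 and from 246.25 to 345.75 after 1 day. After 7 days they were 430.25 and 428.5, 326.75 and 326.25, and 262.25 and 121.75 on replicates 1, 2 and 3. The part of the print area in the miR-25-3p values was not tested. Oligodendrocyte miRNAs (miR-219-5p, miR-338-3p and miR-338-5p, all 3 on the array) shared part of the order of arrays of miR-25-3p. Their summed signal was 1333, 738 and 1422 in control, 662 to 1198 after 1 day, and 2441.5, 2149 and 835 after 7 days. The lowest array of this sum was FA 1 day replicate 2, and all FA 1 day arrays lay below control replicates 1 and 3. The lowest control and the brightest pair of FA 7 days arrays were the same for this sum and miR-25-3p. Some miRNAs of other cell types shared this, among them neuronal miR-9-5p, miR-128-3p and miR-7a-5p and leukocyte miR-142-3p. Others did not, such as neuronal miR-124-3p, which was brightest on control replicate 2. The part of oligodendrocytes in the miR-25-3p values was not tested. In human blood miR-25 is plentiful in red blood cells, whose miRNAs (5 on the array) summed to between 4555.5 and 6742 in control, 5304 and 9480 after 1 day and 3673 and 9043 after 7 days, ranges that overlap. Most of that sum is miR-451, and the dimmer members of the list, described here after their values were seen, differed among themselves. miR-486-5p had signals from 277.5 to 333 in control, 353.5 to 526 after 1 day and 354 to 462.5 after 7 days, so all exposed arrays lay above all controls. These are signals before normalization, a scale on which no share over all probes was counted. That holds for the other marker signals and sums here as well. On the normalized scale 49 of the 462 probes (10.6%) lay higher without overlap in FA 1 day versus control. In FA 7 days versus control 41 (8.87%) did. miR-144-5p was 5.25, 12.25 and 21.75 in control, 97, 93.5 and 54 after 1 day and 51, 40.75 and -6 after 7 days. It lay above all controls after 1 day and overlapped them after 7 days. miR-144-3p ran from 420 to 1307 in control, 1082.5 to 3431.5 after 1 day and 416 to 1546 after 7 days, ranges that overlap. miR-486-3p was detected on 0 arrays. The part of red blood cells in the values of miR-25-3p and of its partners was not tested. Epithelial miRNAs (miR-205-5p and miR-203-3p, both on the array) summed to 131, 129 and 113.5 in control, 371, 161 and 220 after 1 day and 208, 170.5 and 157 after 7 days. In this sum all exposed arrays lay above all controls, but neither miRNA did so alone. miR-205-5p lay above all controls after 1 day, but had 27.25 and 30.75 on FA 7 days replicates 1 and 2 beside 48.5 on control replicate 2. miR-203-3p had 48 on FA 1 day replicate 2 and 67.25 on FA 7 days replicate 3 beside 114.5 on control replicate 1. The part of epithelial cells was not tested. Leukocyte miRNAs (4 of 4 on the array) summed to 678 to 1326.5 in control, 901.5 to 2433 after 1 day and 823 to 1860 after 7 days, and their part was not tested either.

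miR-25-3p is cut from the 3′ side of its hairpin. The Mir25 hairpin, 84 nt at chr5:138165321-138165404 on the minus strand (GRCm38.p6), is printed with both mature arms in capitals, miR-25-5p first, since the array reads each arm with its own probe.
Mir25: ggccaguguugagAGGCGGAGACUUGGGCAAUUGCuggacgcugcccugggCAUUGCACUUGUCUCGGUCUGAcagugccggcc
The arms had different orders of arrays. miR-25-5p had signals of 52.75, 75.5 and 28.75 in control, 38.25, 28 and 52.25 after 1 day and 43.5, 31 and 48.25 after 7 days. It was detected on 7 of 9 arrays, brightest on control replicate 2 where the 3p arm was dimmest, and its groups overlapped. The log2 differences of the 5p arm were -0.12 ± 0.20 (FA 1 day versus control), 0.00 ± 0.20 (FA 7 days versus control) and 0.12 ± 0.20 (FA 7 days versus FA 1 day). The difference between the arms itself was not tested.

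miR-92b-3p showed no separation of the groups. Its signals ran from 80 to 139 over the 9 arrays. Normalized values were 7.50, 7.54 and 7.24 in control, 7.37, 7.39 and 7.29 after 1 day and 7.19, 7.37 and 8.04 after 7 days. It was the 1 member detected on all 9 arrays, and the groups overlapped throughout. Normalized means were 7.43 ± 0.16, 7.35 ± 0.05 and 7.54 ± 0.45 in control, FA 1 day and FA 7 days. The log2 differences were -0.08 ± 0.23 for FA 1 day versus control (95% interval -0.61 to 0.46, limma adjusted p = 0.945), 0.11 ± 0.23 for FA 7 days versus control (-0.42 to 0.64, adjusted p = 0.893) and 0.18 ± 0.23 for FA 7 days versus FA 1 day (-0.35 to 0.72, adjusted p = 0.981). Without FA 7 days replicate 3, the brightest normalized value at 8.04, the comparisons of FA 7 days turned to -0.14 against control and -0.068 against FA 1 day. These turns rest in part on FA 7 days replicate 1, whose value of 7.19 averages spots that disagreed by block, as described next.

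The spots of miR-92b-3p disagreed by place on the array. Each probe is printed in a block numbered 1 to 18 and again in a block numbered 19 to 36, with 2 spots in each. For miR-92b-3p these are blocks 2 and 20. On FA 7 days replicate 1 the spots read -10 and 5 in block 2 but 200 and 186 in block 20. On FA 1 day replicate 2 the order was the reverse, with 176 and 132 against 57 and 59, and on control replicate 1 they read 88 and 93 against 143 and 148. The same held for other probes of these blocks: over the 26 probes detected on all arrays, the median signal on FA 7 days replicate 1 was 15.25 in block 2 and 638 in block 20, with 495.5 and 284.5 on FA 1 day replicate 2. The local background on FA 7 days replicate 1 was 62 in block 2 and 45 in block 20.

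**Figure D2:**
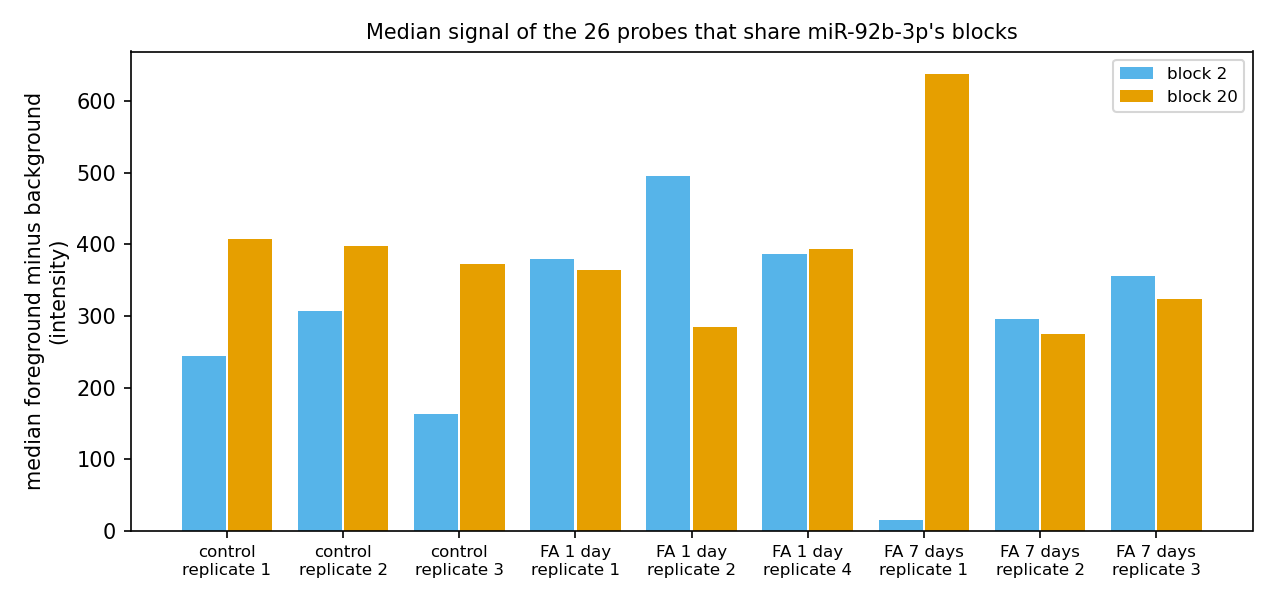
Median foreground minus background intensity (y axis) of the 26 probes detected on all arrays that are printed in blocks 2 and 20, the blocks of miR-92b-3p, for each of the 9 arrays (1 bar per block, no error bars). Block 2 is close to empty on FA 7 days replicate 1, at 15.25 against 638 in block 20.

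The direction for miR-92b-3p turned with the choice of block. With the spots of blocks 1 to 18 only, a setting chosen after seeing the data, FA 7 days lay at -0.50 relative to FA 1 day (limma adjusted p = 0.730). With blocks 19 to 36 only it lay 0.68 above FA 1 day (limma adjusted p = 0.377, unadjusted p = 0.0202). In that fit 50 of the 462 probes had an unadjusted p under 0.05. FA 1 day versus control was 0.20 with blocks 1 to 18 and -0.36 with blocks 19 to 36, and FA 7 days versus control was -0.30 and 0.32. None of these differences passed the threshold after adjustment.

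miR-32-5p varied more among replicates than between groups. Its signal was 63, 51.25 and 166.5 in control, 160, 99.25 and 107 after 1 day and 149, 164 and 0 after 7 days. FA 7 days replicate 3 was the 1 array without detection, and the lowest and the highest of the control and FA 7 days arrays enclosed all 3 FA 1 day arrays on the normalized scale. Means were 7.23 ± 0.64, 7.50 ± 0.24 and 7.23 ± 0.92. The log2 differences were 0.27 ± 0.47 for FA 1 day versus control (95% interval -0.79 to 1.33, limma adjusted p = 0.907), 0.00 ± 0.47 for FA 7 days versus control (-1.06 to 1.06, adjusted p = 1) and -0.27 ± 0.47 for FA 7 days versus FA 1 day (-1.33 to 0.80, adjusted p = 0.981). Without FA 7 days replicate 3 the last 2 became 0.51 and 0.25.

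Single spots and blocks also moved miR-32-5p. On control replicate 3, its highest array, the 4 spots read 84, 84, 101 and 397, so the mean rests on 1 bright spot. With the median of spots FA 1 day lay 0.44 and FA 7 days 0.18 above control. On FA 7 days replicate 3 all 4 spots were near 0, at 0, 1, -2 and 1. Its blocks were dim on that array, with a median over probes detected on all arrays of 125.25 in block 11 and 81 in block 29. On the other arrays these medians ran from 85.25 to 427.5 and from 232.75 to 454.5. On FA 1 day replicate 2 the spots read 60 and 60 in block 11 but 137 and 140 in block 29, and the 22 probes of those blocks that were detected on all arrays had medians of 85.25 and 284.25 there.

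**Figure D3:**
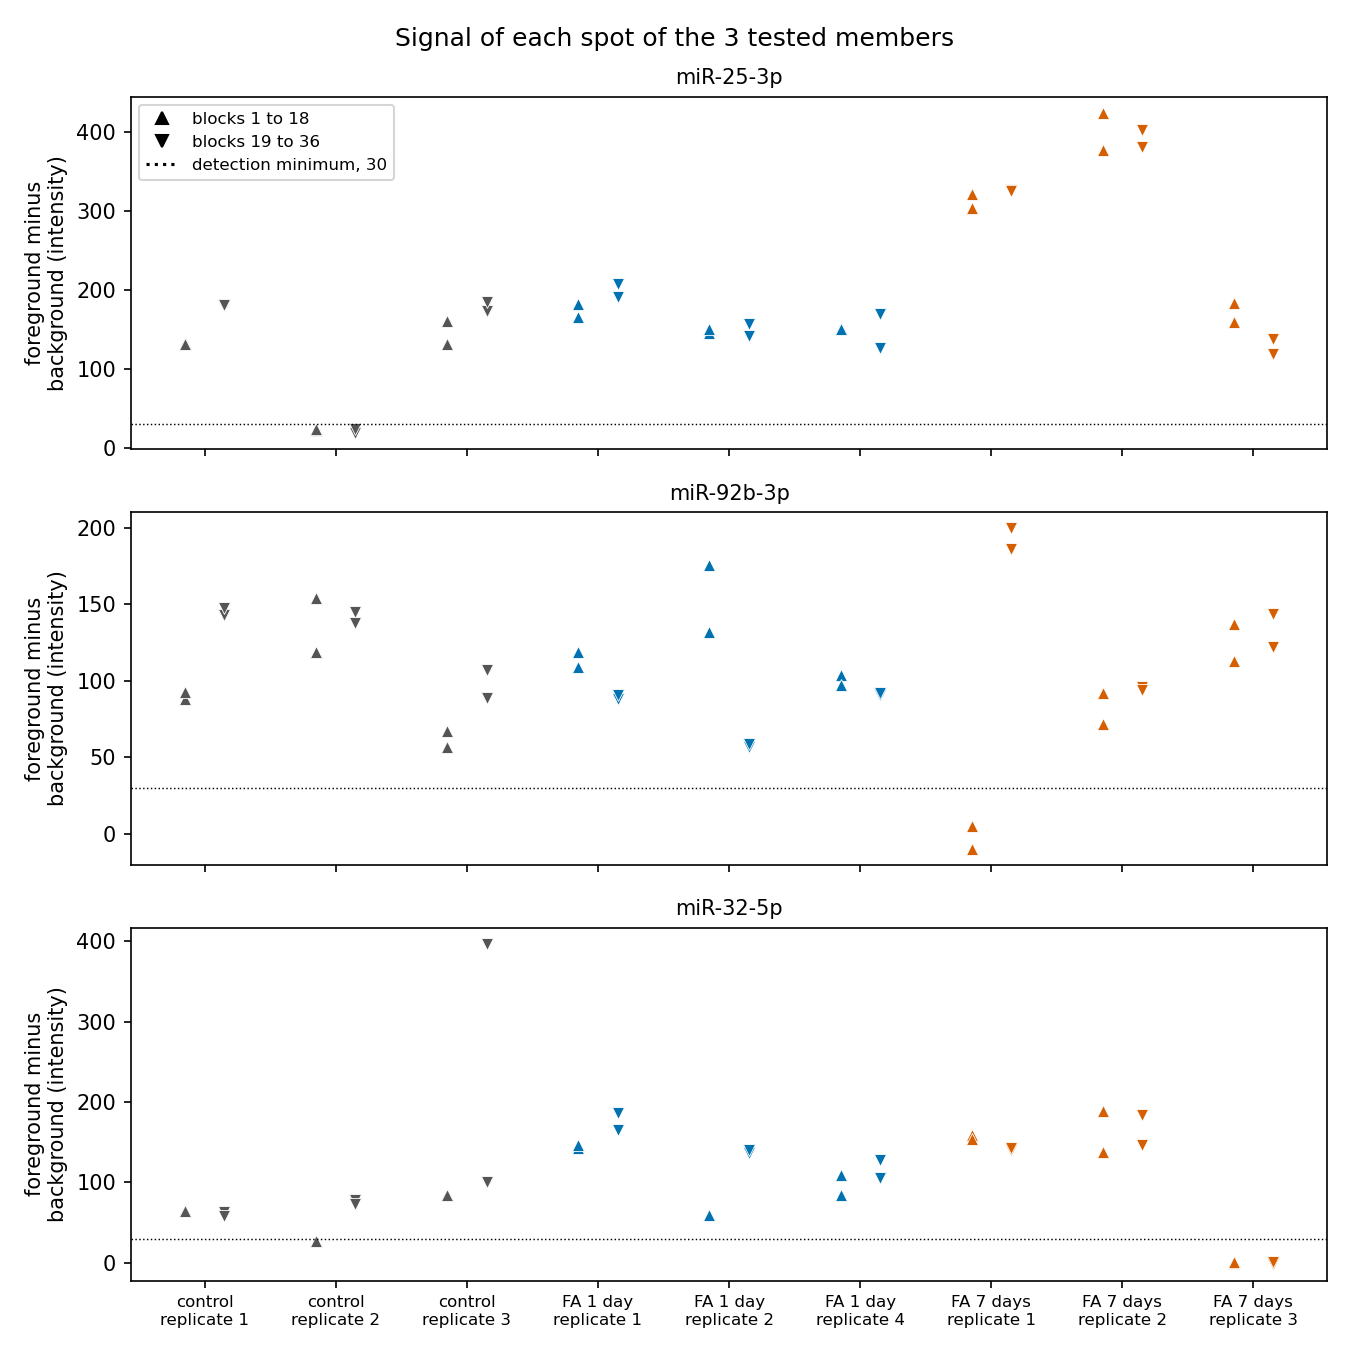
Foreground minus background intensity (y axis) of each of the 4 spots of the 3 tested members on each array (x axis). Upward triangles are spots of blocks 1 to 18, downward triangles spots of blocks 19 to 36, and the dotted line is the detection minimum of 30. Spots of miR-25-3p lie close together on each array, those of miR-92b-3p split by block on FA 7 days replicate 1, and miR-32-5p has 1 spot at 397 on control replicate 3.

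The other arm of the miR-32 hairpin stayed bright where miR-32-5p was not detected. The Mir32 hairpin, 70 nt at chr4:56895229-56895298 on the minus strand (GRCm38.p6), is shown with miR-32-5p and then miR-32-3p in capitals, because the member is here the 5p arm, unlike in the rest of the family.
Mir32: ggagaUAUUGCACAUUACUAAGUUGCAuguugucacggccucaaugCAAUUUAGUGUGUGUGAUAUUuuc
miR-32-3p had signals of 541, 971 and 434 in control, 523, 542 and 656 after 1 day and 767, 335.5 and 678 after 7 days. On FA 7 days replicate 3 it thus gave 678 where miR-32-5p gave 0. The arms are printed in different blocks, miR-32-3p in 13 and 31, and the blocks of miR-32-5p were dim on that array. The part of the print area in this contrast was not tested. Its groups overlapped, with differences of -0.24 ± 0.42, -0.25 ± 0.42 and -0.01 ± 0.42 for FA 1 day versus control, FA 7 days versus control and FA 7 days versus FA 1 day, and it did not pass in any.

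miR-92a-3p, the product of both miR-17-92 type clusters, was close to background. Its signal was 6.25, 42 and 6.50 in control, 7.75, 6 and 9 after 1 day and 9.25, 10.25 and 3 after 7 days. Control replicate 2 was the 1 array above the detection minimum, with spots of 55, 40, 40 and 33, and the other 8 arrays were between 3 and 10.25. Its normalized values ran from 6.18 to 6.62. In a fit of all 1027 mouse probes without the filter, the differences were -0.16 ± 0.11 for FA 1 day versus control, -0.05 ± 0.11 for FA 7 days versus control and 0.10 ± 0.11 for FA 7 days versus FA 1 day (limma adjusted p = 0.759, 0.904 and 0.999). These values do not bound the amount of miR-92a in the tissue, only what this probe gave over background.

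miR-363-3p, which is cut from the X-linked cluster beside Mir92-2, had signals between -8.75 and 6 on the 9 arrays. No array reached the detection minimum, and the differences without the filter were 0.03, 0.01 and -0.02 in the same order (limma adjusted p = 0.852, 0.949 and 0.999). Of the 6 other arms of the members' hairpins, 2 were tested, miR-25-5p and miR-32-3p. miR-92a-2-5p was detected on 2 arrays (control replicate 1, at 96, and FA 7 days replicate 3, at 65.75), and miR-92a-1-5p, miR-92b-5p and miR-363-5p on 0.

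The cluster partners were brought in because they are cut from the same primary transcripts as miR-25, miR-92a and miR-363. All 21 listed partners were on the array and 10 were tested. After 1 day 9 of the 10 lay above control and 1 below, with a median log2 difference of 0.56 and a range from -0.11 to 1.12, beside a median of 0.06 over all 462 probes, of which 57.4% lay higher. The groups did not overlap for 5 of the 10, against 69 of 462 (14.9%) over all. The dimmest of these 5 was detected on 0 control arrays and on 3 FA 1 day arrays. It passed the filter through the group where it lay higher, which favours its place in both counts. Several of the 10 partners share a seed with other partners, and whether their probes take up each other's RNA was not tested. The partners are thus not a set of unrelated probes. After 7 days 7 lay above control and 3 below, with a median of 0.19, and 1 did not overlap, against 49 of 462 (10.6%). From 1 day to 7 days 2 lay higher and 8 lower, with a median of -0.25, and 2 did not overlap, against 93 of 462 (20.1%). None passed the adjusted limma test, and miR-106a-5p alone had an unadjusted p under 0.05, in FA 1 day versus control.

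The partners' counts also moved with the scaling, as did those of all probes. With median scaling 10 lay higher after 1 day (median 0.91, beside 0.34 over all probes) and 10 after 7 days (0.36, beside 0.26). Without normalization between arrays 8 lay higher after 1 day (0.46, beside -0.11), and after 7 days 5 lay higher and 5 lower (0.0084, beside -0.090).

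Without control replicate 2 the partners' median in FA 1 day versus control was 0.33, with 8 higher and 2 lower. Without FA 7 days replicate 3 their median in FA 7 days versus control was 0.46, with 9 higher and 1 lower, and in FA 7 days versus FA 1 day it was -0.10, with 4 higher and 6 lower. The partners' shift between the exposures therefore rests partly on that array.

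Of the 3 tested partners of miR-25-3p in the miR-106b-25 cluster, miR-106b-3p had group means in the same order (6.86 ± 0.30 in control, 7.02 ± 0.13 after 1 day and 7.17 ± 0.05 after 7 days), and miR-106b-5p and miR-93-5p had other orders. The values of miR-106b-3p after 7 days lay above all controls without overlap, with a difference of 0.31 ± 0.19 (SE; 0.14 without control replicate 2) and a limma adjusted p of 0.701. miR-106b-5p, of the miR-17 seed family, gave signals of 1548, 1432.5 and 1608.5 in control, 1882, 1583 and 1739 after 1 day and 2724.5, 1742 and 676 after 7 days. Its lowest array was FA 7 days replicate 3, and its normalized FA 7 days values all lay below those after 1 day. Relative to control it stood at 0.06 ± 0.22 (FA 1 day) and -0.36 ± 0.22 (FA 7 days), and FA 7 days differed from FA 1 day by -0.42 ± 0.22. miR-93-5p, of the same seed family, lay 0.79 ± 0.44 above control after 1 day and 0.26 ± 0.44 above it after 7 days, with its lowest signals, 366.5 and 452, on the pair of arrays that stood apart. Without control replicate 2 these became 0.31 and -0.21.

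Among the miR-17-92 and X-linked partners, miR-106a-5p had the smallest F-test p. Its signal was 274.5, 216 and 340 in control, 546, 370 and 446.5 after 1 day and 513, 396 and 217 after 7 days. All 3 FA 1 day arrays lay above all controls. It lay 0.63 ± 0.23 above control after 1 day (limma adjusted p = 0.636) and 0.39 ± 0.23 after 7 days (adjusted p = 0.701). Control replicate 2 was its lowest control, at a normalized 7.98 beside 8.43 and 8.69 on replicates 1 and 3. Both differences would thus be smaller without control replicate 2. miR-19b-3p, which shares its seed with miR-19a-3p and is the partner best known from lymphoma in mice, differed by 1.05 ± 0.53 and 0.98 ± 0.53, or by 0.34 and 0.27 without control replicate 2, where its signal was 70.75. miR-20a-5p stood at 1.12 ± 0.61 relative to control after 1 day and at -0.11 ± 0.61 after 7 days, where replicate 3 had a signal of 18.25 beside 823 and 501 on replicates 1 and 2. Without that array it lay 0.76 above control after 7 days. miR-17-5p differed by 0.64 ± 0.39 and -0.04 ± 0.39, and by 0.44 after 7 days without the same array.

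**Figure D4:**
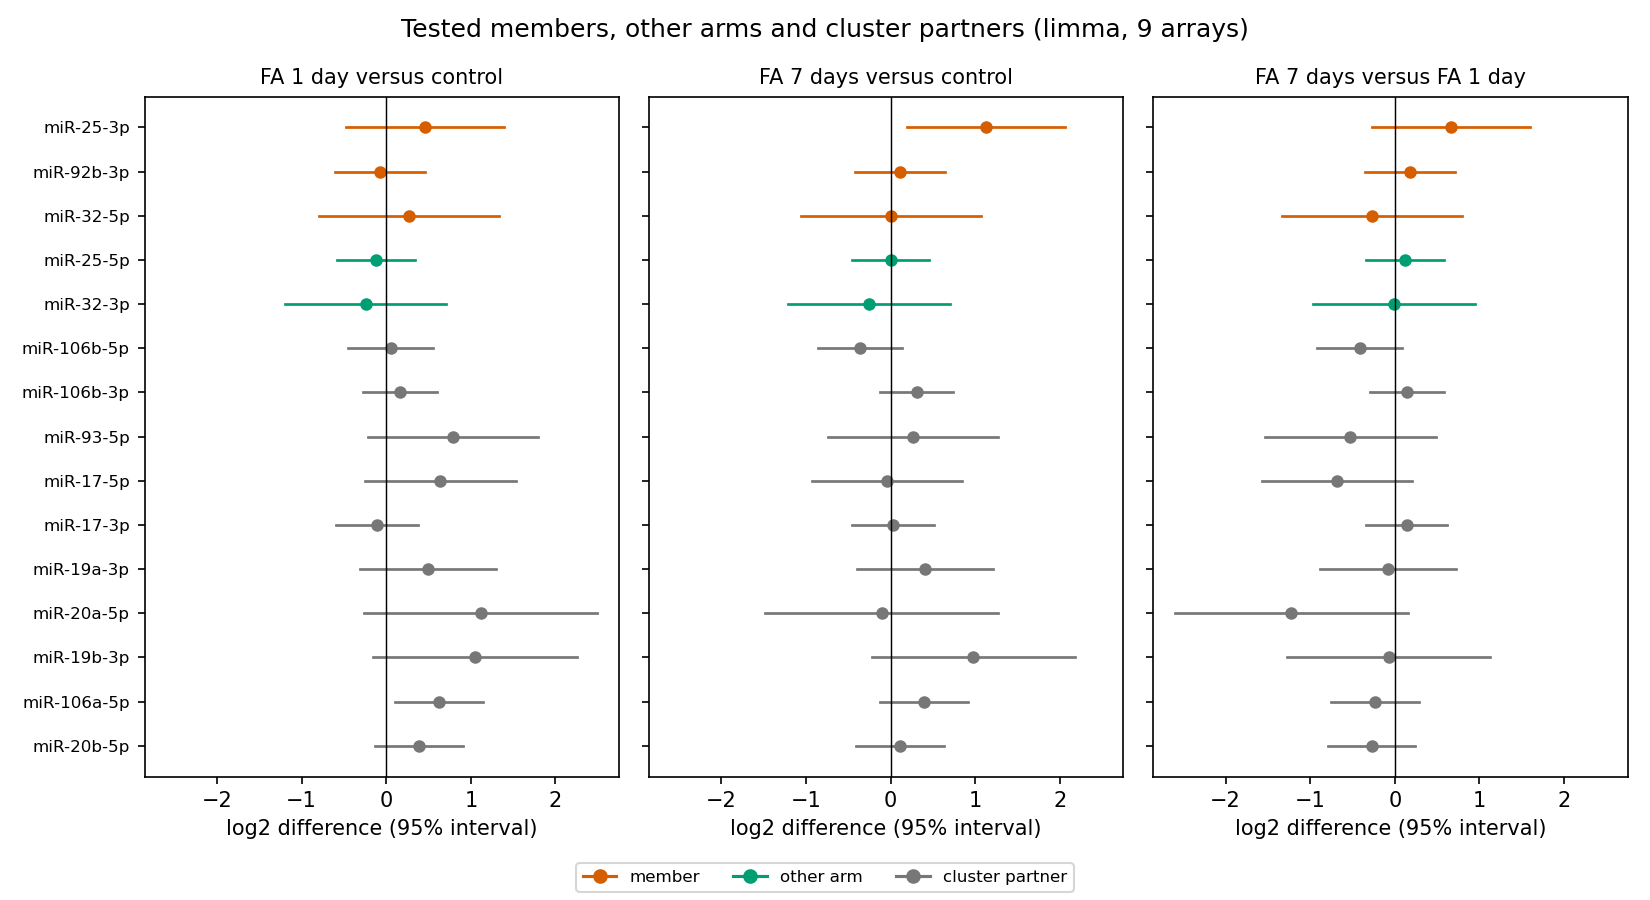
Log2 difference with its 95% interval from limma (x axis) for the tested members, other arms and cluster partners (y axis) in each of the 3 comparisons, from all 9 arrays. The intervals of miR-25-3p in FA 7 days versus control and of miR-106a-5p in FA 1 day versus control do not include 0, and none of the differences passed after adjustment over 462 probes.

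The 3 tested members did not move as 1 group over the arrays. Exact two-sided permutation tests over the 9 arrays were run for the 3 pairs and adjusted by Benjamini-Hochberg. miR-25-3p and miR-92b-3p had Pearson's r = -0.09 (exact p = 0.663, adjusted 0.663) and Spearman's rho = -0.33 (exact p = 0.390, adjusted 0.390), and r = 0.28 without the 2 arrays farthest from the median of miR-25-3p. miR-25-3p and miR-32-5p had r = 0.44 (exact p = 0.258, adjusted 0.388) and rho = 0.50 (exact p = 0.178, adjusted 0.266), and r = -0.24 without control replicate 2 and FA 7 days replicate 2, so the sign turned without that pair of arrays. It was 0.63 over 7 arrays without both that stood apart, 0.65 with blocks 1 to 18 and 0.26 with blocks 19 to 36.

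miR-92b-3p and miR-32-5p ran in opposite directions, with r = -0.84 (exact p = 0.00832, adjusted 0.025) and rho = -0.77 (exact p = 0.0190, adjusted 0.0570), and r = -0.79 without FA 7 days replicates 1 and 3. The Pearson value passed the threshold and the rank value did not. Without both arrays that stood apart r was -0.44 over 7 arrays, so part of the relation rests on them. It was -0.61 with blocks 1 to 18 only and -0.72 with blocks 19 to 36 only. No group holds enough arrays for a value within it. The permutations mixed arrays of the 3 groups, so they do not set differences between groups apart from the relation. On FA 7 days replicate 1 block 2 of miR-92b-3p was close to empty, and on replicate 3 miR-32-5p lay in dim blocks. The r of -0.79 leaves out both, but keeps control replicate 3, where miR-32-5p rests on 1 spot of 397. The part of that spot was not tested.

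The probes most like miR-25-3p, miR-92b-3p and miR-92a-3p over the 9 arrays are given as a description. For miR-25-3p they were miR-149-5p (r = 0.99), miR-181b-5p (0.96), miR-106b-3p (0.95), miR-204-5p (0.95) and miR-136-5p (0.94), against a median of 0.05 over 460 probes. Without control replicate 2 these were 0.97, 0.85, 0.82, 0.85 and 0.84. miR-106b-3p is the 1 cluster partner among them. For miR-92b-3p they were miR-714 (0.96), miR-21-3p (0.94), miR-677-3p (0.93), miR-3082-5p (0.90) and miR-3076-3p (0.90). For miR-92a-3p the likest was miR-664-3p, at 0.94 with all arrays and 0.54 without control replicate 2, and the next, miR-484, went from 0.89 to 0.07. The likeness of the latter thus rests on 1 array, the only one where miR-92a-3p was detected.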

How the data were processed

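Per the file headers, the deposited raw table holds 2 intensity values for each of 12312 spots (2673 probes) per array: foreground, and foreground less background. Which scanner and image software made them is not given in the sources used here. A ratio per probe was deposited by the authors as well. In every column it equals, within 1% for 100% of listed values, the median over spots of foreground minus background divided by that array's median over 301 bright miRNA probes; values at or under 0 are blank. Its scale is thus linear, and column medians run from 0.0196 to 0.160.

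The raw values of each spot were background-corrected by normexp (offset 50; R 4.3.3, limma 3.58.1), averaged over spots, and quantile normalized between arrays on 1027 mouse and 57 viral miRNA probes before log2, which hides any shift that most miRNAs share. The 462 mouse probes detected on all 3 arrays of some group were tested with lmFit and eBayes in a group-means fit of all 9 arrays, two-sided, with Benjamini-Hochberg adjustment and a threshold of 0.05. The pipeline was run on simulated data with noise drawn independently for each probe and array. Arrays that stand apart and dim blocks were not part of it, and it set no demand on recovering the smaller simulated differences. The median SE was 0.27, and the number of arrays limits the precision. No pair of arrays shared over 10.7% of spot values, so all were kept apart. The labels do not say that arrays hold separate animals; the p-values measure the spread among these arrays only, which may be technical. Named are the members, their other arms, the 6 cluster partners with the smallest F-test p, same-seed miRNAs and the 5 likest probes; miR-106b-3p is both a likest probe and a partner outside those 6. The rule lists likest probes for miR-25-3p, miR-92a-3p and miR-92b-3p and for any further member detected on all arrays, which miR-32-5p and miR-363-3p were not. Markers were chosen as lists of miRNAs known from each cell type. Muscle miRNAs summed to 52 to 494 per array (miR-206-3p was detected on none). Members and lists were chosen with earlier results of these data known. Mature sequences and hairpins were matched by name in RefSeq tables on GRCm38.p6, and all 5 members matched. Alternatives covered the scaling, background, spot average, filter, ratios, a block on the replicate number and each array left out. Python 3.11.15 with scipy 1.17.1 and matplotlib 3.10.9 served for the permutation tests and plots.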

Additional observations from a re-analysis of the deposited data

How the results depend on the processing

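Of 183 values of the 3 tested members under alternatives, 51 equal the reported one, mostly because the alternative cannot move it (an array of the third group left out, another filter). Of the other 132, 109 kept their direction and 23 turned. None of the 183 passed the threshold, and the causes were not tested. The number of probes past the threshold was 0 with limma under every alternative in FA 7 days versus FA 1 day. It was 0 in the other 2 comparisons and the F-test, except for 1 in each without control replicate 3 (range 0 to 1 with arrays left out), never a member. Unadjusted counts ran from 14 to 71 in FA 1 day versus control, 6 to 72 in FA 7 days versus control and 16 to 96 in FA 7 days versus FA 1 day. Median scaling moved the median of all probes by 0.28 and 0.20 in the comparisons with control, and leaving out normalization by -0.17 and -0.15.

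miR-25-3p in FA 7 days versus control ranged from 0.76 without both arrays that stand apart to 2.04 with plain subtraction and a floor (1.35 with median scaling, 1.67 with the deposited ratios). With single arrays left out it ranged from 0.62 to 1.43. FA 1 day versus control turned to -0.048 without control replicate 2 or both arrays (range with single arrays left out -0.048 to 0.76); it was 1.16 with subtraction and a floor and 0.86 with the ratios. FA 7 days versus FA 1 day ranged from 0.43 to 0.81 with single arrays left out and was 0.88 with the floor.

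miR-92b-3p in FA 1 day versus control turned to 0.15 with median scaling, 0.034 with the replicate block and 0.20 with blocks 1 to 18 (range -0.17 to -0.02 with arrays left out). In FA 7 days versus control it turned to -0.18 without normalization, -0.056 with the ratios, -0.088 without both arrays and -0.30 with blocks 1 to 18 (range -0.14 to 0.28 likewise). In FA 7 days versus FA 1 day it turned to -0.068 without both arrays and -0.50 with blocks 1 to 18 (range -0.068 to 0.35). miR-32-5p in FA 7 days versus control turned to -0.11 without normalization, -1.53 with the ratios, -1.14 with subtraction and a floor and -0.21 with blocks 19 to 36 (range -0.38 to 0.51). In FA 7 days versus FA 1 day it turned to 0.25 without both arrays (range with single arrays left out -0.65 to 0.25) and was -2.26 with the ratios and -1.70 with the floor. FA 1 day versus control ranged from 0.02 to 0.63 with single arrays left out and was 0.74 with the ratios. miR-25-3p and miR-32-5p have no value among probes detected on all arrays.

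Same-numbered samples deviated together in some pairs and not in others (correlations from -0.58 to 0.33). These values cannot tell whether the numbers mark a shared batch. Each deviation is taken from a mean of 3 arrays, so an array that stands apart also moves the deviations of its group. With the replicate block 0 probes passed in each comparison (14, 6 and 16 at an unadjusted p under 0.05, in the order above), and miR-25-3p in FA 7 days versus control was 1.13 (limma adjusted p = 0.919).

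Leaving out both arrays and splitting by blocks were chosen after seeing the data. A fit with a lone pair of arrays in a group pools the spread of all groups. Signal near background limits miR-92a-3p and miR-363-3p; both stayed at or near it on nearly all arrays.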
